A study of Mus musculus with 8 samples.

Results

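The genes described here encode the enzymes that remove superoxide and peroxides, the glutathione and thioredoxin systems that keep those enzymes reduced, and the transcription factors that control them. The members were 40 genes listed by function, by a rule that sets no threshold on their values but was written with earlier results of these data known, and 36 of them had a probe set that named a single gene, out of 18193 genes measured in all. Prdx1, Prdx5, Prdx6 and G6pdx were not matched to such a probe set and are not reported here. Expression was measured on microarrays in sorted bone marrow cells with low lineage markers, Sca1 and high cKit (LSK cells, the compartment that holds blood stem cells and early progenitors) of C57BL/6 mice. The control group was 4 arrays of wild type mice, and the other group was 4 arrays of heterozygous mice. Heterozygous mice carry 1 copy of Jak2V617F, a constantly active variant of the kinase behind several cytokine receptors, which drives myeloproliferative neoplasms. All mice were untreated as far as the labels say. Each label names a mouse and a replicate number, without saying whether cells of several mice were pooled. How the mutant allele was introduced, and the age and sex of the mice, are not given in the sources used here. The comparison asks whether the mutant kinase, in its heterozygous state, went along with other levels of antioxidant transcripts in these cells.

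As background, Nfe2l2 (Nrf2) is a transcription factor that is held in the cytoplasm and marked for degradation by Keap1. Oxidants and electrophiles modify Keap1, and the stabilised factor then turns on genes for glutathione synthesis, quinone reduction and the repair of thiols. Foxo factors, which are kept out of the nucleus by Akt downstream of growth factor receptors, control another set that includes Sod2 and Cat. Blood stem cells are known to be sensitive to oxidants, and loss of Foxo3 or of Atm in mice raises their oxidant load and exhausts them.

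Values are log2 intensities, on which a difference of 1 is a 2-fold change, and every difference is mutant minus wild type. The arrays had medians from 7.06 to 7.15, and arrays correlated at 0.991 to 0.996 across probe sets. The number of arrays limits the precision. Jak2 transcript read 12.63 ± 0.05 in wild type and 12.43 ± 0.16 (SD, n = 4 each) in mutant arrays (limma adjusted p = 0.294), which does not check the genotype labels, since whether its probe sets read the mutant allele was not tested. The stem and progenitor markers Kit (12.65 and 12.67), Cd34 (14.04 and 13.93) and Flt3 (13.46 and 13.40, group means) were bright in both genotypes. In a list of markers of LSK cells and their subsets, 4 of 6 measured genes lay above 0 (median 0.06). Their mean level was 12.25 to 12.53 in wild type and 12.49 to 12.76 in mutant arrays. Ly6a (Sca1), also on the list, was not matched, so only Kit was read of the markers that the gate selects for. Within that list Cd34 was lower in every mutant array (-0.12), Cd48 was higher in every mutant array (0.35, limma adjusted p = 0.138) and Slamf1 differed by 0.72 (limma adjusted p = 0.225). Y-linked Eif2s3y was at 12.51 to 12.89 in 5 arrays, wild type 3 and 4 and mutant 1, 2 and 4, and at 5.11 to 5.37 in wild type 1 and 2 and mutant 3, whose Xist values were 13.21 to 13.46. The sexes read in this way were thus unequally spread over the genotypes, and values among the 5 male arrays are given for each member whose difference there departed by over 0.1 from that over all arrays, and for some others.

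No antioxidant gene passed the test. Of 36 members, 0 had a limma adjusted p under 0.05, against 0.165% of all genes (0.104% higher and 0.0605% lower in the mutant). At an unadjusted p under 0.05 there were 4 members, or 11.1%, against 17.2% of all genes. The glutathione synthetase gene Gss and the mitochondrial thioredoxin reductase gene Txnrd2 were the 2 that lay higher (5.56% of members, 11.9% of all genes). The peroxidase gene Gpx7 and the sulfiredoxin gene Srxn1 were the 2 that lay lower (5.56% of members, 5.23% of all genes). The arrays of the genotypes did not overlap for 3 members, Gss, Txnrd2 and Gpx7, which is 8.33% against 10.1% of all genes (6.82% higher and 3.33% lower). These shares are near or under those of genes at large.

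Differences were small as well as uncalled. Of the members, 19 lay above 0 and 17 below, with a median of 0.00105 and a range from -0.45 to 0.49. The median over all genes was 0.05. All 36 members passed the filter on dim genes (a mean over the 8 arrays of at least 7.11), and the 10969 genes that passed it had a median of 0.02. In size regardless of sign, the median difference was 0.09 among members and 0.11 among genes past that filter, and 18 members lay within 0.1 of 0. The precision was good enough to bound most of them: the 95% limma interval of the difference lay within a 1.5-fold change either way for 32 of 36 members (88.9%, against 84.0% of all genes). The 4 whose interval reached past it were Gss, Gpx7, Srxn1 and Gpx3. The share of all genes includes those under the filter on dim genes, which every member passed. Each interval is that of the probe set used for the gene.

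**Figure D1:**
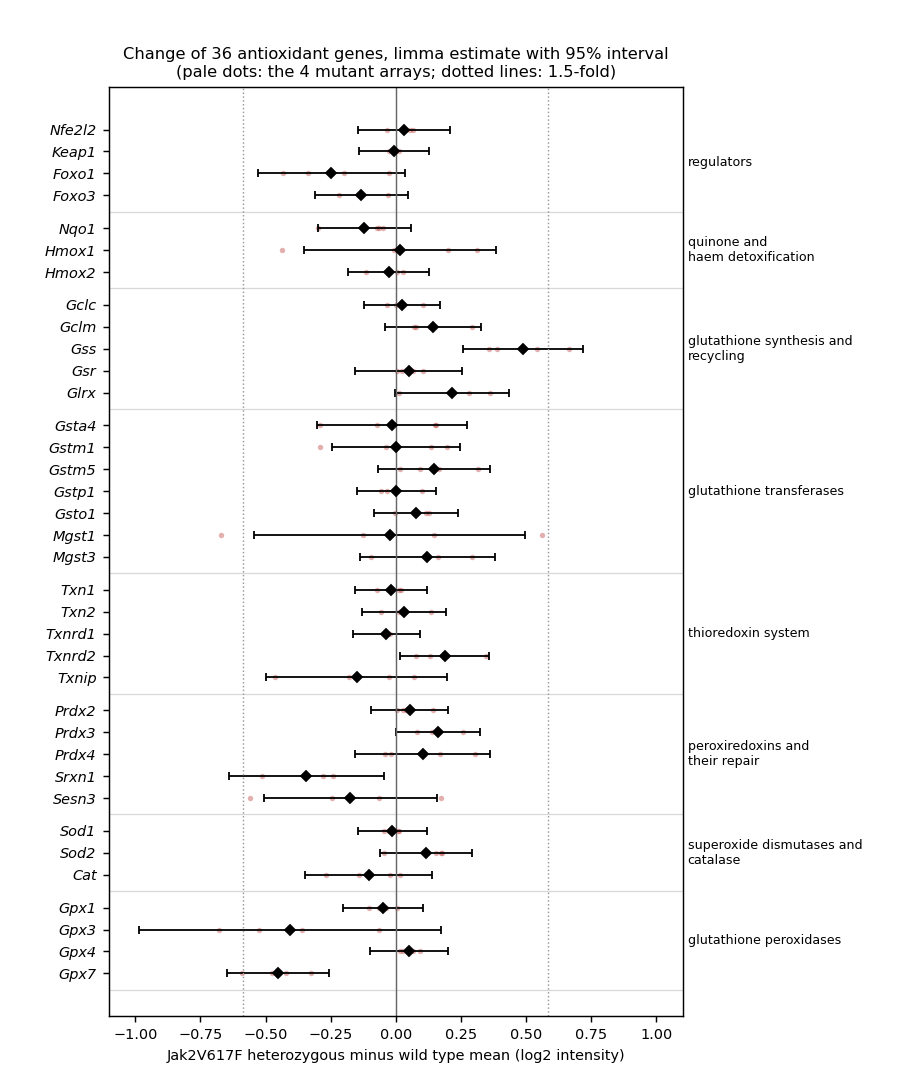
Difference in log2 intensity between Jak2V617F heterozygous and wild type arrays for the 36 measured members, grouped by role. Diamonds and bars are the limma estimate and its 95% interval, pale dots the 4 mutant arrays relative to the wild type mean, and dotted lines mark a 1.5-fold change. A reader should see 32 intervals inside the dotted lines and 4, of Gss, Gpx7, Srxn1 and Gpx3, that cross one.

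**Figure D2:**
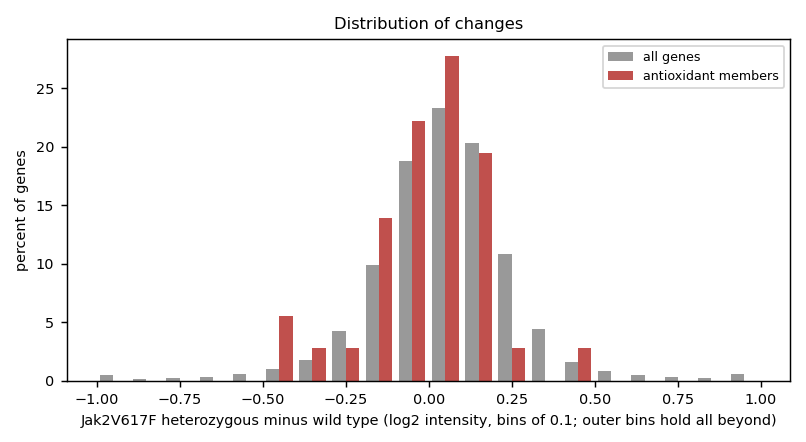
Share of genes, in percent, by difference in log2 intensity (mutant minus wild type) in bins of 0.1, for all genes (grey) and the 36 members (red). The members lie between -0.45 and 0.49, with 18 of them in the bins next to 0.

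Transcripts of the sensor and its factor were level between the genotypes. Nfe2l2 read 12.38, 12.16, 12.44 and 12.32 in wild type arrays 1 to 4 and 12.39, 12.29, 12.38 and 12.36 in mutant arrays 1 to 4. All mutant values lay inside the wild type range, and the difference was 0.03 with a 95% interval from -0.14 to 0.21 (limma adjusted p = 0.849). Keap1 read 12.45, 12.35, 12.37 and 12.41 in wild type and 12.41, 12.40, 12.37 and 12.39 in mutant arrays, a difference of -0.0056 (interval -0.14 to 0.13). A dimmer Keap1 probe set, from 7.67 to 8.02 in wild type, was higher in every mutant array (8.03 to 8.17) by 0.19 (limma adjusted p over all probe sets = 0.328). Transcript levels of this pair do not report Nfe2l2 activity, which is set mainly by protein stability.

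Foxo genes lay lower without passing the test. Foxo3, the family member most needed by blood stem cells, read 13.64, 13.69, 13.89 and 13.69 in wild type and 13.59, 13.58, 13.70 and 13.51 in mutant arrays. Mutant arrays 1, 2 and 4 lay below all wild type arrays and mutant array 3 within them, and the difference was -0.13 ± 0.08 (SE, limma adjusted p = 0.406). A further bright Foxo3 probe set gave -0.13 too, and the difference among male arrays was -0.23. Foxo1 read 10.60, 10.55, 10.64 and 11.01 in wild type and 10.36, 10.50, 10.68 and 10.27 in mutant arrays. Here too mutant array 3 lay among the wild type arrays, and the difference was -0.25 (interval -0.53 to 0.03, limma adjusted p = 0.340). It was -0.44 among male arrays, -0.15 without wild type array 4 and -0.08 with its 4 probe sets averaged.

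The best known targets of Nfe2l2 gave the following. Nqo1, the quinone reductase used as a standard readout of the factor, read 9.76, 9.66, 9.68 and 9.59 in wild type and 9.61, 9.38, 9.60 and 9.63 in mutant arrays, with mutant array 2 the lowest. Its difference was -0.12 (interval -0.30 to 0.06). Hmox1, the inducible haem oxygenase, differed by 0.02 (interval -0.35 to 0.39), with mutant arrays spread from 9.14 to 9.89 around the wild type range of 9.33 to 9.77, and by 0.15 among male arrays. Hmox2, the constitutive form, differed by -0.03.

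The core of the sequence to which Nfe2l2 and small Maf proteins bind, the antioxidant response element, was searched for as TGACNNNGC on both strands. The window ran from 250 bases before to 50 bases after each transcription start, in the RefSeq promoter table of GRCm38.p6, which held 35 of the 40 members. A match stood in 9 of these (25.7%), against 14.0% of the 27025 genes in the table. The 7 measured ones are printed because they show which members carry the letters close to the start. Each stretch of 29 bases is read 5′ to 3′ on the gene's strand, and capitals mark the core, as TGACNNNGC or as its reverse complement GCNNNGTCA.
Nfe2l2, chr2:75704885-75704913, minus strand: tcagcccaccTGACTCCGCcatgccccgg
Gclm, chr3:122245413-122245441, plus strand: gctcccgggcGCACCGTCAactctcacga
Gstm5, chr3:107895802-107895830, plus strand: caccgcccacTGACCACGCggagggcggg
Mgst1, chr6:138140461-138140489, plus strand: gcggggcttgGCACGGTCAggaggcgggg
Txnrd1, chr10:82859104-82859132, plus strand: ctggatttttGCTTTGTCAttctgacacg
Sod1, chr16:90220696-90220724, plus strand: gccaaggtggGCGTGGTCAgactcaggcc
Srxn1, chr2:152105542-152105570, plus strand: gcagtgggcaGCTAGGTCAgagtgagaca
The core was centred 236 bases before the start in Nfe2l2, 130 in Gclm, 88 in Txnrd1, 52 in Mgst1 and in Sod1 and 38 in Gstm5, and 32 bases after it in Srxn1. None of the 7 holds the AP-1 motif (TGACTCA or TGAGTCA) within the core, which the match of Prdx1, a member that was not measured, does. The differences of these 7 genes ran from -0.34 to 0.15 with a median of -0.01. Those of the 25 measured members without a match in the window ran from -0.45 to 0.49 with a median of 0.0010. A match describes letters near the start and shows no binding, and known elements of several members lie farther upstream.

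Genes of glutathione synthesis and recycling had differences above 0 in 5 of 5 measured members, with a median of 0.14. Of all genes 62.6% lay above 0, and 54.0% of those past the filter on dim genes. The differences of Gclc (0.02) and Gsr (0.05) changed sign in some fits with 1 array left out. Glutathione is the main small thiol of cells, made in 2 steps and reduced again by Gsr. Gss, which encodes the enzyme of the second step, read 9.05, 9.25, 9.23 and 9.42 in wild type and 9.60, 9.78, 9.63 and 9.90 in mutant arrays. Every mutant array lay above every wild type array. The difference was 0.49 ± 0.10 (SE), or 1.40-fold, with a limma adjusted p of 0.0956 that misses the threshold. Over the alternative fits its size ran from 0.40 to 0.55 and its adjusted p from 0.0874 to 0.225, and among male arrays it was 0.43. The other Gss probe set differed by 0.30 ± 0.09 (SE), with mutant arrays at 9.01 to 9.28 and wild type arrays at 8.77 to 9.02.

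The first and rate-limiting step is made by the ligase of Gclc and Gclm, its catalytic and modifier subunits. Gclc differed by 0.02 (interval -0.12 to 0.17) and Gclm by 0.14 (interval -0.04 to 0.33). The other probe set of Gclm differed by 0.26 (limma adjusted p over all probe sets = 0.315) and that of Gclc by 0.06. Gsr, the reductase that regenerates glutathione, differed by 0.05 (interval -0.16 to 0.26). Glrx, the cytosolic glutaredoxin that removes glutathione from protein thiols, read 12.11, 12.14, 11.87 and 12.09 in wild type and 12.06, 12.26, 12.41 and 12.33 in mutant arrays. Mutant arrays 2, 3 and 4 lay above all wild type arrays and mutant array 1 within them, and the difference was 0.22 (interval -0.0018 to 0.43, limma adjusted p = 0.294). The second Glrx probe set differed by 0.37 (limma adjusted p over all probe sets = 0.203).

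Glutathione peroxidases lay on both sides of 0. Gpx7 encodes a peroxidase of the endoplasmic reticulum that passes oxidising equivalents to protein disulfide isomerase, and it had the smallest p of any member. It read 10.61, 10.54, 10.40 and 10.68 in wild type and 10.13, 10.08, 9.97 and 10.23 in mutant arrays. Each mutant array lay below each wild type array, and the difference was -0.45 ± 0.09 (SE), a level 1.37-fold lower, with a limma adjusted p of 0.0817. Over the alternative fits it ran from -0.50 to -0.39 and its adjusted p from 0.0664 to 0.215. Gpx7 had 1 probe set, so no other could be compared.

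Gpx3, the secreted plasma peroxidase, was the member with the largest error. It read 8.46, 8.39, 7.34 and 7.62 in wild type and 7.43, 7.59, 7.89 and 7.28 in mutant arrays. The 3 highest arrays were those with female expression, 2 wild type and 1 mutant. The difference of -0.41 ± 0.26 (SE, limma adjusted p = 0.429) was -0.05 among male arrays and -0.22 with sex as a covariate over all 8. The abundant selenoenzymes Gpx1, which reduces hydrogen peroxide in the cytosol, and Gpx4, which reduces lipid peroxides in membranes and guards against ferroptosis, differed by -0.05 (interval -0.20 to 0.10) and 0.05 (interval -0.10 to 0.20).

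**Figure D3:**
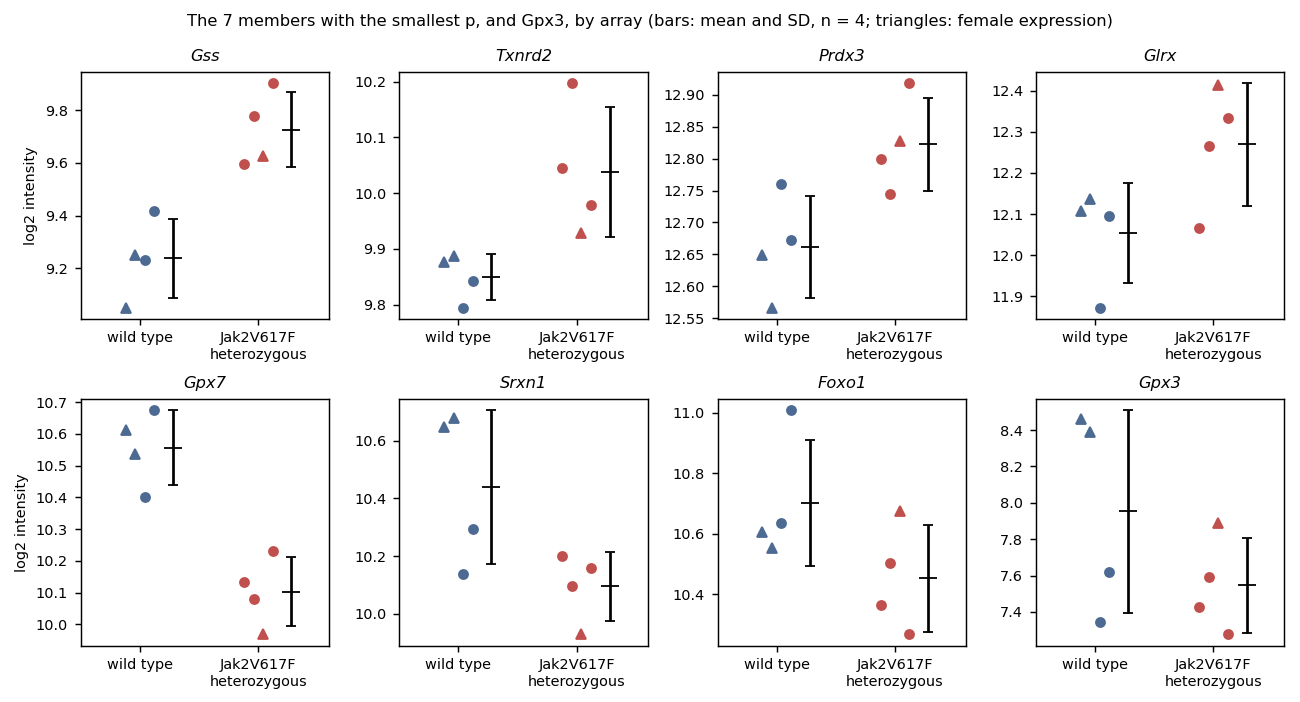
Log2 intensity by array of the 7 members with the smallest p and of Gpx3, with black bars for the mean and SD of 4 arrays. Triangles mark arrays with female expression of Xist and Y-linked genes and circles male ones. The groups are apart for Gss, Txnrd2 and Gpx7, while in Srxn1 and Gpx3 the 2 female wild type arrays stand above the rest.

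Peroxiredoxins reduce peroxides through a reactive cysteine, which sulfiredoxin restores when it is overoxidised. Srxn1, the sulfiredoxin gene and a target of both Nfe2l2 and AP-1, read 10.65, 10.68, 10.14 and 10.30 in wild type and 10.20, 10.10, 9.93 and 10.16 in mutant arrays. Wild type arrays 1 and 2 were highest, and mutant arrays 1 and 4 lay between the other wild type arrays. The difference was -0.34 ± 0.13 (SE, limma adjusted p = 0.243). Another probe set of similar brightness gave -0.39, with all mutant arrays (9.41 to 9.78) below all wild type arrays (9.80 to 10.29), and a dimmer one gave -0.10. Both of the high wild type arrays had female expression, and the difference was -0.06 among male arrays but -0.30 with sex as a covariate over all 8 arrays (limma adjusted p = 0.279). The mutant array with female expression, array 3, was the lowest of all 8.

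Prdx3, the mitochondrial peroxiredoxin, read 12.65, 12.57, 12.76 and 12.67 in wild type and 12.80, 12.74, 12.83 and 12.92 in mutant arrays. Mutant array 2 alone lay within the wild type range, and the difference was 0.16 (interval -0.0011 to 0.32, limma adjusted p = 0.293). Prdx2, the abundant peroxiredoxin of red cells, differed by 0.05 (interval -0.10 to 0.20) on its brightest probe set. Another Prdx2 probe set was at 10.98 to 11.02 in wild type and at 11.11, 11.30, 11.91 and 11.28 in mutant arrays, a difference of 0.41 (limma adjusted p over all probe sets = 0.236). The probe sets of this gene therefore disagree in size. Prdx4, of the endoplasmic reticulum, differed by 0.10. Sesn3, a stress sensor induced by Foxo factors, differed by -0.17, with mutant arrays from 10.91 to 11.64 around the wild type range of 11.29 to 11.56, and by -0.37 among male arrays.

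In the thioredoxin system, Txnrd2 alone had groups that did not overlap. This mitochondrial reductase gene read 9.88, 9.89, 9.79 and 9.84 in wild type and 10.04, 10.20, 9.93 and 9.98 in mutant arrays. The lowest mutant array stood just above the highest wild type array, and the difference was 0.19 ± 0.08 (SE, limma adjusted p = 0.259). Its other 3 probe sets differed by 0.29, 0.08 and 0.08, and in the first of these too every mutant array lay higher.

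Txn1 and Txn2, the cytosolic and mitochondrial thioredoxins, differed by -0.02 (interval -0.16 to 0.12) and 0.03 (interval -0.13 to 0.19). Txnrd1, the cytosolic reductase, differed by -0.04 (interval -0.17 to 0.09) on its brightest probe set, with SDs of 0.03 and 0.0088. Its other 2 probe sets told otherwise, at -0.46 and -0.39 (limma adjusted p over all probe sets = 0.227 for each). In the second of these, wild type arrays read 8.50 to 9.13 and mutant arrays 8.16 to 8.49, without overlap. Which transcripts each probe set reads was not tested. Txnip, which binds and inhibits thioredoxin, read 13.69, 13.64, 14.17 and 14.04 in wild type and 13.71, 13.86, 13.96 and 13.42 in mutant arrays. Over all arrays its groups overlapped, with a difference of -0.15 (interval -0.50 to 0.20). Among male arrays the difference was -0.44 without overlap (limma adjusted p = 0.235), a split in which 38.6% of all genes did not overlap.

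Superoxide dismutases turn superoxide into hydrogen peroxide, which catalase breaks down. Sod1, the cytosolic form, was among the most tightly measured members, at 14.82 to 14.89 in wild type and 14.82 to 14.87 in mutant arrays, with a difference of -0.01 (interval -0.15 to 0.12). Sod2, the mitochondrial form, read 12.74, 12.57, 12.60 and 12.65 in wild type and 12.82, 12.80, 12.60 and 12.82 in mutant arrays. Its difference was 0.12 (interval -0.06 to 0.29), but a probe set of similar brightness gave -0.14 with all mutant arrays (12.39 to 12.45) below all wild type arrays (12.50 to 12.66), and another gave 0.19. The direction of Sod2 thus depended on the probe set. Cat differed by -0.10 (interval -0.35 to 0.14), and by 0.10 on its other probe set.

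Glutathione transferases attach glutathione to electrophiles. Their 7 members had a median of 0.0011 and ran from -0.02 to 0.15, and none had an unadjusted limma p under 0.05. Gstm5 had the smallest p of them, at 12.36, 12.18, 12.33 and 12.06 in wild type and 12.25, 12.55, 12.40 and 12.32 in mutant arrays, a difference of 0.15 (interval -0.07 to 0.36). Gstp1, the pi class enzyme, differed by 0.0011 (interval -0.15 to 0.15), Gstm1 by 0.0010, Gsta4 by -0.01 and the omega class gene Gsto1 by 0.08. The microsomal genes Mgst3 and Mgst1 differed by 0.12 and -0.02. Mutant arrays varied more than wild type arrays for Mgst1, from 10.42 in mutant array 1 to 11.65 in mutant array 3 against 10.84 to 11.29. Among male arrays Mgst1 differed by -0.31, Gsta4 by 0.13, Gstm1 by -0.12 and Mgst3 by 0.02.

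**Figure D4:**
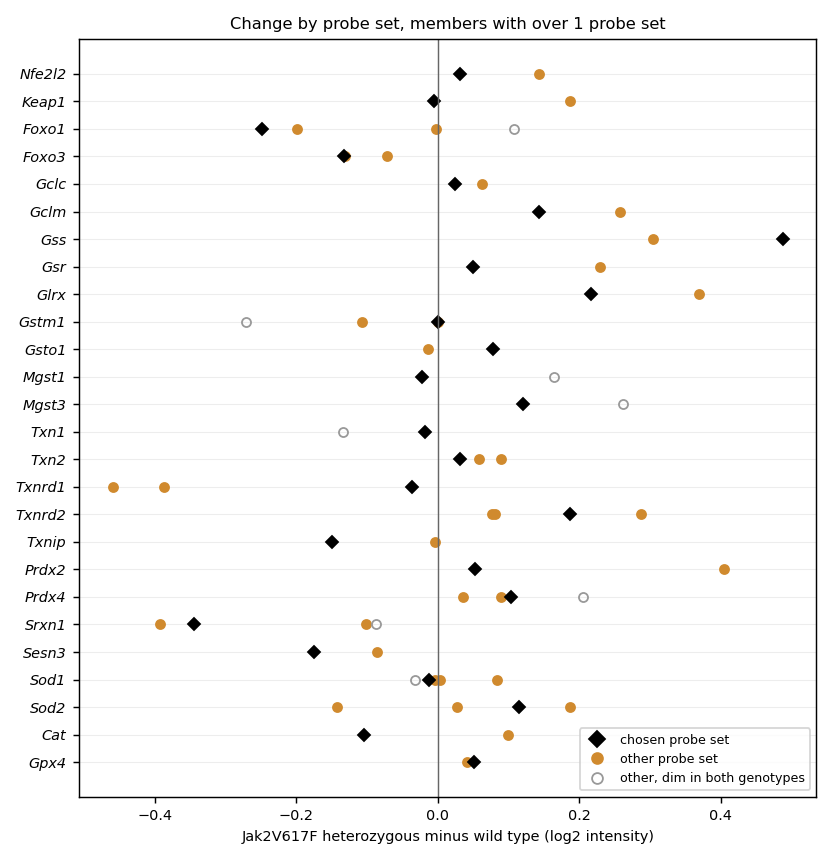
Difference in log2 intensity (mutant minus wild type) of each probe set of the 26 members with over 1 probe set. Diamonds are the probe set used for the gene, filled circles other probe sets, and open circles probe sets whose mean lay under 7.11 in both genotypes. Probe sets lie close together for Gpx4, Txn2 and Foxo3, and apart for Txnrd1, Prdx2, Sod2 and Cat.

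Other genes of the pathway were taken from 5 lists, with 92 of 100 genes measured. None passed the limma threshold, and 12 had an unadjusted p under 0.05 (13.0%, against 17.2% of all genes), 10 higher and 2 lower. Their median was 0.03. Among 14 measured partners and regulators of Nfe2l2, 7 lay above 0 and 7 below. Dpp3, a Keap1 binding protein, differed by 0.25 (limma adjusted p = 0.248) and Btrc, which targets Nfe2l2 for degradation, by 0.22 (0.262). Among 20 further targets the median was 0.04, with the pentose phosphate enzyme gene Taldo1 at 0.19 and no overlap, Osgin1 at -0.28 and Fth1, the ferritin heavy chain gene, at -0.11. Among 29 further thiol and peroxide enzymes the median was 0.02, with Gstz1 at 0.23, the mitochondrial glutaredoxin gene Glrx2 at 0.16 and the glutathione-degrading enzyme gene Ggct at 0.26. Among 13 Foxo targets and genes of redox control in quiescence, Bcl6 lay lowest at -0.52 with no overlap (limma adjusted p = 0.160), Prdm16 was at -0.48 and Gadd45a at 0.34.

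Of 16 measured genes of oxidant sources 12 lay above 0, as did 62.6% of all genes, with a median of 0.08. At an unadjusted p under 0.05 there were 3 of the 16, all higher, against 11.9% of all genes that were higher and 17.2% in either direction, so the count is close to the background. Cybb encodes the catalytic subunit of the phagocyte NADPH oxidase, which makes superoxide. It read 7.95, 7.94, 8.58 and 7.85 in wild type and 8.67, 8.91, 8.85 and 8.99 in mutant arrays. Every mutant array was above every wild type array, and the difference was 0.77 ± 0.16 (SE), or 1.71-fold, with a limma adjusted p of 0.0929.

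Ncf1, the organiser subunit of that oxidase, differed by 0.38 (limma adjusted p = 0.196) with mutant array 1 inside the wild type range. The membrane partner Cyba differed by 0.15 (limma adjusted p = 0.340), and Rac2 by -0.02. Ncf4 differed by -0.19, with wild type arrays at 12.97, 12.87, 12.03 and 12.19 and mutant arrays at 12.30 to 12.34. The mutant arrays thus lay below the 2 wild type arrays with female expression and above the 2 with male expression. Maoa, a mitochondrial amine oxidase that releases hydrogen peroxide, read 9.67, 9.86, 9.84 and 9.71 in wild type and 10.32, 10.02, 9.90 and 10.41 in mutant arrays, without overlap (0.39, limma adjusted p = 0.192). Mpo, the granule peroxidase of early myeloid cells and also one of the granulocyte markers, differed by 0.05.

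Markers of cells that carry the phagocyte oxidase lay higher in the same arrays. All 17 macrophage and dendritic markers had a difference above 0, with a median of 0.55, and their mean level ran from 8.37 to 8.94 in wild type and from 8.99 to 9.58 in mutant arrays. Of 12 measured granulocyte and monocyte markers 10 lay above 0, with a median of 0.31 and a mean level of 11.98 to 12.57 against 12.49 to 12.82. The macrophage marker Adgre1 was dim at 6.30 and 6.92 and Itgam at 5.77 and 5.45 (group means), while Csf1r was bright at 11.57 and 12.22. None of these markers passed the limma threshold, while 8 of the 17 and 2 of the 12 had an unadjusted p under 0.05, all higher, against 11.9% of all genes. Their part in the difference of Cybb and Ncf1 was not tested, and in pooled cells a larger share of such cells and more transcript per cell cannot be told apart.

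**Figure D5:**
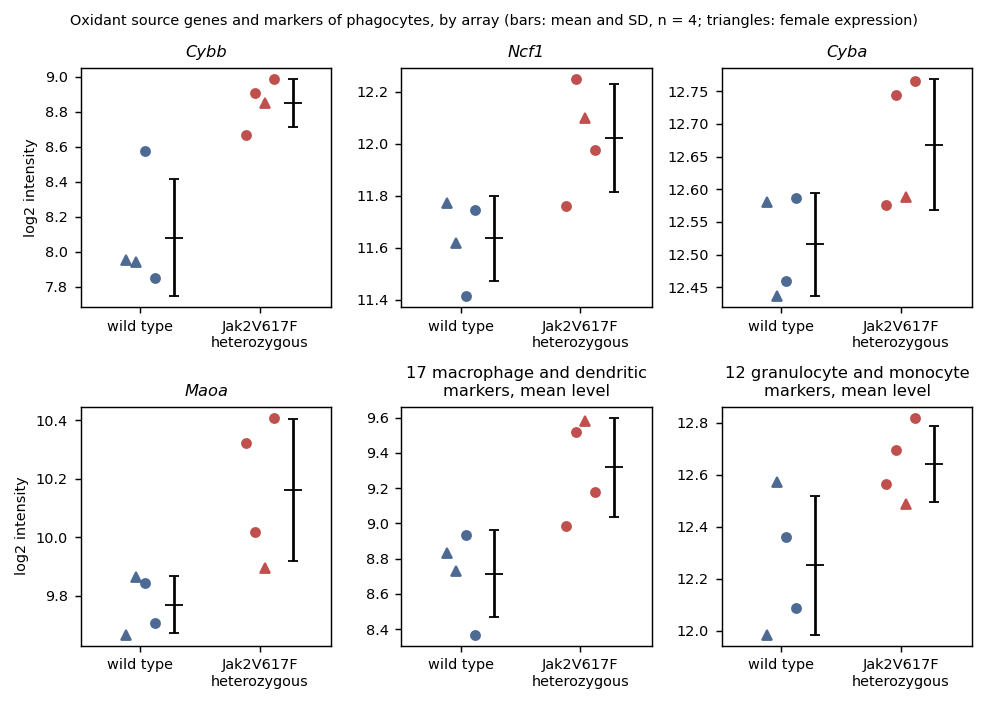
Log2 intensity by array of the oxidant source genes Cybb, Ncf1, Cyba and Maoa, and mean level of 17 macrophage and dendritic markers and of 12 granulocyte and monocyte markers. Black bars are the mean and SD of 4 arrays, triangles arrays with female expression. Cybb and the mean level of the macrophage markers are higher in every mutant array than in any wild type array. Taken singly, 3 of the 17 markers did not overlap, all higher, against 6.82% of all genes.

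Markers of other lineages that hold much antioxidant enzyme read as follows. Erythroid markers, of cells rich in Prdx2, Cat and Gpx1, lay above 0 in 13 of 14 measured genes by a median of 0.52. Their mean level was 8.85 to 9.57 in wild type and 9.37 to 10.28 in mutant arrays. The differences ran from -0.0075 for Car2 to 2.32 for Slc4a1 (without overlap, limma adjusted p = 0.105), with Hbb-b2 at 1.67 and Alas2 at 1.52. Alas2 was dim at 5.54 and 7.06 (group means). The bright globin gene Hba-a2 (13.20 and 13.22) differed by 0.01, Hemgn by 0.07 and the dim Hba-a1 by 0.13. Prdx2, Cat and Gpx1 themselves differed by 0.05, -0.10 and -0.05 on the probe sets used for them, while the other Prdx2 probe set differed by 0.41 without overlap and the other Cat probe set by 0.10. Megakaryocyte markers lay above 0 in 9 of 9 genes (median 0.39, 9.003 to 9.48 against 9.21 to 9.86) and mast cell and basophil markers in 6 of 7 (median 0.25, 7.43 to 8.34 against 7.91 to 8.27). T and NK cell markers lay above 0 in 7 of 8 genes (median 0.22, 7.01 to 7.28 against 7.12 to 7.49), with Cd3e at 7.01 and 7.20. Cd4, the gene below 0, was lower in every mutant array (-0.45, limma adjusted p = 0.188). Cd3d, Cd3g, Cd8a, Cd8b1 and Gzma were dim, with means under 7.11 in both genotypes. B cell markers lay above 0 in 4 of 7 genes (median 0.0019, 7.01 to 7.17 against 7.04 to 7.20), with Cd79a dim at 6.51 and 6.49 and Cd79b (11.76 in both genotypes) and Vpreb1 (9.80 and 9.66) bright. Stromal and endothelial markers lay above 0 in 4 of 8 genes (median 0.09, 6.25 to 6.70 against 6.14 to 6.41). Among them the stromal genes Col1a2 and Cxcl12 differed by -1.72 and -1.01, the latter without overlap. Col1a1, Col3a1 and Lepr, also stromal, differed by -0.04, -0.10 and 0.24. Col1a2 read 9.83 and 9.50 in the 2 wild type arrays with female expression, and 6.74 and 6.85 in the other wild type arrays. Its mutant arrays read 5.86 to 7.17. The endothelial genes Pecam1, Cdh5 and Kdr differed by 0.36, 0.28 and 0.21. No limma adjusted p among these 8 genes was under 0.05. The part of these cells in the values of single members was not tested.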

How the data were processed

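RNA of sorted LSK cells was amplified with the NuGEN Ovation system and hybridised to Affymetrix mouse arrays, per the labels' protocols and probe names. The authors deposited log2 intensities for which RMA, affy and R 2.11.0 are the tools listed in the submitters' processing notes. That they are on a log2 scale follows from their range. Quantile normalisation within RMA would hide a shift shared by most transcripts. Chip definition and genome build are not given in the sources used here. Of 45101 probe sets 34945 had a single symbol, 932 several and 9160 none, and 64 were controls. Each of 18193 genes was represented by its probe set with the highest mean. Limma 3.58.1 (lmFit, eBayes, two-sided) in R 4.3.3 compared the genotypes without covariates, and p-values were adjusted by Benjamini-Hochberg across the 18193 genes, with calls made under 0.05. The labels describe mice, and nothing further says how they were kept or pooled, so p-values measure the spread between these samples.

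The members and lists were chosen with earlier results of these data known. Full values are given for members with an unadjusted p under 0.05 or without overlap, for Nfe2l2, Keap1, Foxo3 and Txnip, and for the smallest p of each role. Of each pathway list up to 4 genes with small p are named, most by their difference alone. Some marker lists are given only by counts, medians and mean levels. Glrx, Prdx3, Gpx3, Fth1, Mpo, Rac2, Ncf4, Cyba and other probe sets were described after their values were seen. On simulated data over 18193 genes for this comparison, limma recovered 41.8% of the genes set to change by 0.5, 88.1% at a change of 1 and 100% at 2, and 10 of its 163 calls were wrong. Alternative fits used a replicate block, centring, filters, other probe sets, other priors and weights, sex, and each array left out.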

Additional observations from a re-analysis of the deposited data

Results flagged for a closer look

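In 4 of 72 groups of 4 arrays, 1 array stood far from the other 3, by Dixon's ratio at its 95% critical value. Chance gives about 1 in 20 groups, or 3.6 here. Nqo1 read 9.38 in mutant array 2 and 9.60 to 9.63 in the other mutant arrays. Glrx read 11.87 in wild type array 3 and 12.09 to 12.14 in the others. Sod2 read 12.60 in mutant array 3 and 12.80 to 12.82 in the others. Txnrd1 read 13.75 in mutant array 2 and 13.73 in each of the others, a gap that is small in size because this group varied little.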

How the results depend on the processing

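No member was called at 0.05 under any alternative that was run. At a threshold of 0.10 there were 2 of 36 members, Gpx7 and Gss, against 199 of 18193 genes, a larger share of the members than of all genes. Members with an unadjusted limma p under 0.05 numbered 8 with probe sets averaged and 13 of 80 with all probe sets tested. Members without overlap numbered 5 of 30 without the _s_at, _x_at and _a_at probe sets, 9 of 80 with all probe sets and 13 among the 5 male arrays, where 38.6% of all genes did not overlap. With 1 array left out, the count of members at an unadjusted limma p under 0.05 ran from 2 (without wild type array 1) to 5. The count without overlap ran from 3 to 6. The shares over all genes in those fits are not given here, so these counts are not read further. The replicate number of the labels as a block gave 0 calls and 4 members with an unadjusted limma p under 0.05, against 15.9% of all genes. Same-numbered arrays correlated in their deviations at -0.023, -0.221, -0.056 and 0.103. Only the arrays numbered 4 correlated best with their own number. The sexes read from expression differ within numbers 1, 2 and 3, and sex may enter these correlations. They therefore do not decide whether the numbers pair the arrays.

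Of 606 recomputed differences 561 kept their direction and side of the threshold, and 45 changed sign, all of members at 0.12 or less in size. The cause was not tested. Median centring gave Hmox1 -0.0011, Gstm1 -0.0166 and Gstp1 -0.0165. Averaged probe sets gave Keap1 0.091, Gstm1 -0.094, Mgst1 0.0707 and Sod1 0.0076. Without the _s_at, _x_at and _a_at probe sets, Mgst1 was 0.16, Sod2 -0.14 and Cat 0.10. Array weights gave Hmox1 -0.00019, Gstm1 -0.0138 and Gstp1 -0.00076. Sex as a covariate gave Gsta4 0.0118 and Mgst1 0.0325. Male arrays alone gave Nfe2l2 -0.0324, Keap1 0.0070, Gsta4 0.13, Gstm1 -0.12 and Gpx1 0.0015. With 1 array left out, the differences ran from -0.0028 to 0.0432 for Gclc, -0.0047 to 0.12 for Gsr, -0.0911 to 0.0776 for Gsta4, -0.0643 to 0.0982 for Gstm1 and -0.0317 to 0.0204 for Gstp1. They ran from -0.082 to 0.17 for Hmox1, -0.0493 to 0.0022 for Hmox2, -0.0197 to 0.0128 for Keap1 and -0.22 to 0.19 for Mgst1. For Nfe2l2 they ran from -0.0243 to 0.0716, for Txn1 from -0.0315 to 0.00077 and for Txn2 from -0.0038 to 0.0608.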
